A study of Mus musculus with 15 samples.

Results

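The genes of Polycomb repressive complex 2 (PRC2) were followed across sorted nuclei of the mouse ventral tegmental area, a midbrain region rich in dopamine neurons. The 10 members were taken by symbol from the 35976 genes of the deposited count table: the methyltransferases Ezh1 and Ezh2, the core subunits Eed, Suz12, Rbbp4 and Rbbp7, and the accessory subunits Jarid2, Phf1, Mtf2 and Phf19. All mice were male heterozygous DAT-Cre animals of the line B6.SJL-Slc6a3tm1.1(cre)Bkmm/J, 8 to 12 weeks old, in which the dopamine transporter locus drives Cre, and all received AAV5-DIO-KASH-HA in the ventral tegmental area, so that nuclei of Cre-positive cells carried an HA tag. The food-trained group (FT, n = 4 dopaminergic samples) was collected after lever training for food over 7 days. The maintenance group (MN, n = 3) had then worked for intravenous cocaine in daily sessions of 1 hour, for 5 days at 0.3 mg/kg per infusion and 10 days at 1.0 mg/kg per infusion. The abstinence group (CRV, n = 4) had spent a further 21 days in the home cage without cocaine. HA-negative nuclei of food-trained mice (nDA, n = 4), labelled non-dopaminergic neurons, were sorted as the comparison population. Every sample pooled tissue of 2 mice, so the tests below measure the spread between such pools, and a nucleus that the virus did not reach fell into the HA-negative gate whatever its type.

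PRC2 places methyl groups on histone H3 at the position known as H3K27, a mark found over silenced developmental genes. Ezh1 or Ezh2 carries out the reaction inside a core with Suz12, Eed and an Rbbp subunit, Eed reads the finished mark, and accessory subunits guide the core to DNA and set its activity. Dividing cells are known to rely mostly on Ezh2, and adult neurons to carry Ezh1, and loss of PRC2 in adult neurons is known to release silenced genes. Complexes of the related PRC1 family add ubiquitin to histone H2A and can bind the mark that PRC2 leaves.

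Total counts ranged from 25813697 to 59046618 per library, and no pair of libraries held identical values. Each of 10 dopamine neuron markers was higher in HA-positive nuclei past the threshold (edgeR's quasi-likelihood test, Benjamini-Hochberg adjusted p under 0.05), with summed levels of 5803 to 12400 CPM (counts scaled to a library size of 1e6) in the 11 dopaminergic libraries against 351 to 536 CPM in the non-dopaminergic ones. The non-dopaminergic libraries held glial nuclei as well as neurons: their summed level of 9 oligodendrocyte markers was 9093 to 22770 CPM against 1165 to 2839 CPM in dopaminergic libraries, that of 6 astrocyte markers 1219 to 2823 against 385 to 817 CPM, and that of 7 microglia markers 1580 to 3091 against 470 to 1014 CPM. No glial list was at 0 in the dopaminergic libraries. In pooled nuclei of this kind, fewer nuclei of a type and less RNA per nucleus cannot be told apart. Of the 4 proliferation markers, Top2a and Cdk1 were at 0 in all 11 dopaminergic libraries, and the summed level of the 4 was 0 to 5.94 CPM in dopaminergic and 0.816 to 5.03 CPM in non-dopaminergic libraries.

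Between the sorted populations, 1 of the 10 members passed the threshold: Phf19, which had counts in all 4 non-dopaminergic libraries and in no dopaminergic one. Phf19 was kept by the filter on low counts only through the non-dopaminergic group, so its call is given as a description of where its counts lay. With the replicate number as a block, 0 of the 10 passed (Phf19 at an edgeR adjusted p of 0.185), and 775 genes in place of 2534 passed over the whole table. The other 9 members were present in every library, from 0.950 to 232 CPM, and their groups overlapped. Over all genes, 12.8% of 19786 passed (edgeR, adjusted), 24.3% had an unadjusted p under 0.05, and 26% had groups that did not overlap. The same gene, Phf19, was the 1 member under each of these rules, so the members' shares of 1 in 10 lay below or near the shares over all genes. The median log2 fold change of the 10 members, dopaminergic minus non-dopaminergic, was -0.21, against -0.21 over all genes.

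Across the stages of the schedule no member passed the adjusted threshold in any contrast, and the member with the largest shift was Phf1, which was low at maintenance. For maintenance against food training, 0.131% of 19060 genes passed over the whole table, 11.6% had an unadjusted p under 0.05 and 8.5% had groups that did not overlap. Of the 9 members kept in that fit, 0 passed, and Phf1 alone met both of the looser rules. DESeq2 called 992 genes in this contrast, Phf1 among them as the 1 member. For abstinence against food training, the genes that passed came to 0%, those with an unadjusted p under 0.05 to 4.3% (819 genes) and those with separate groups to 3.32%. No member met any of the 3 rules in that contrast, by edgeR or by DESeq2, which called 145 genes. For abstinence against maintenance, 0.178% passed, 9.92% had an unadjusted p under 0.05 and 12.1% had separate groups. There 0 of 9 members passed, Phf1 had an unadjusted p under 0.05, and Phf1 and Jarid2 had separate groups, while DESeq2 called 792 genes with Phf1 as the 1 member. The joint test of any difference among the 3 stages passed for 0.0839% of genes and 0 of 9 members. An unadjusted p under 0.05 was reached by 7.85% of genes and by 1 member, Phf1, at 0.00116 (edgeR adjusted p 0.211). The other 8 members had joint unadjusted p-values of 0.122 to 0.890 in the same edgeR fit of all genes. The contrasts between stages share libraries and are not independent of each other.

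**Figure D1:**
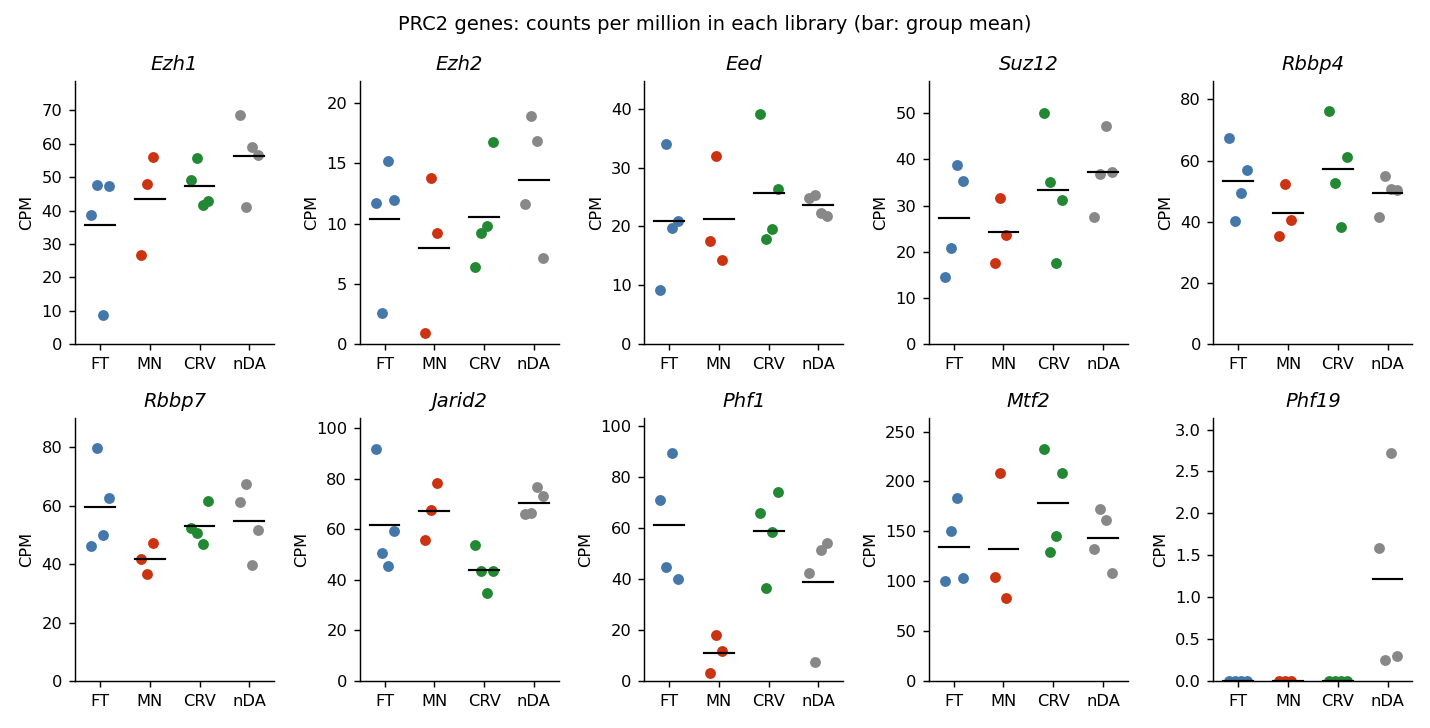
CPM (vertical axis, linear, from 0) of each of the 10 PRC2 genes in each library, by group: dopaminergic nuclei after food training (FT), maintenance (MN) and abstinence (CRV), and non-dopaminergic nuclei after food training (nDA). Points are libraries and bars are group means. Phf1 lies at 3.08 to 17.9 CPM in the 3 maintenance libraries, and Phf19 is above 0 only in the 4 non-dopaminergic libraries.

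The catalytic pair differed in level and in how evenly they were measured. Ezh1 lies at chr11:101191115-101226463 on the minus strand of GRCm38, and Ezh2 at chr6:47530139-47595341, also on the minus strand. Ezh1 stood at 38.5, 47.7, 8.81 and 47.4 CPM in food-trained replicates 1 to 4, at 26.65, 47.8 and 56.1 CPM at maintenance, at 49.1, 55.6, 41.5 and 42.7 CPM at abstinence and at 68.6, 41.0, 59.1 and 56.5 CPM in non-dopaminergic nuclei. Food-trained replicate 3, the shallowest library, was far below its group, and the abstinence libraries were the closest together. The log2 fold change between populations was -0.68 (SE 0.47, edgeR adjusted p 0.440), with overlapping groups. Against food training it was 0.29 (SE 0.47, edgeR adjusted p 0.940) at maintenance and 0.41 (SE 0.44, edgeR adjusted p 0.99997) at abstinence. Without food-trained replicate 3 the maintenance contrast of Ezh1 stood at -0.03.

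Ezh2 stood at 11.7, 2.58, 15.2 and 11.9 CPM after food training, at 0.950, 13.8 and 9.27 CPM at maintenance, at 6.42, 9.20, 9.84 and 16.7 CPM at abstinence and at 11.6, 18.9, 16.8 and 7.12 CPM in non-dopaminergic nuclei. Its lowest libraries, maintenance replicate 1 with 46 counts and food-trained replicate 2 with 89, lay in different groups, and all 4 groups overlapped. Ezh2 differed by -0.42 between populations (SE 0.61, edgeR adjusted p 0.756). Its SE of 0.90 in the maintenance contrast, where it differed by -0.38, left a 95% interval of -2.14 to 1.39 (normal, from the SE). Without maintenance replicate 1 the contrast of Ezh2 was 0.15.

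Per kilobase of transcript, Ezh1 was above Ezh2 in 14 of 15 libraries. The mean levels were 8.47 and 3.71 CPM per kb after food training, 10.3 and 2.87 at maintenance, 11.2 and 3.79 at abstinence and 13.4 and 4.89 in non-dopaminergic nuclei. The ratio of Ezh1 to Ezh2 had a median of 2.41 (0.384 to 12.3) after food training, 4.01 (2.30 to 18.6) at maintenance, 3.4 (1.69 to 5.06) at abstinence and 3.12 (1.43 to 5.26) in non-dopaminergic nuclei. The exception was food-trained replicate 3, where Ezh1 itself was low, and the highest ratios came from the libraries in which Ezh2 was lowest. The excess of Ezh1 was thus seen in HA-negative nuclei as well as in dopaminergic ones.

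**Figure D2:**
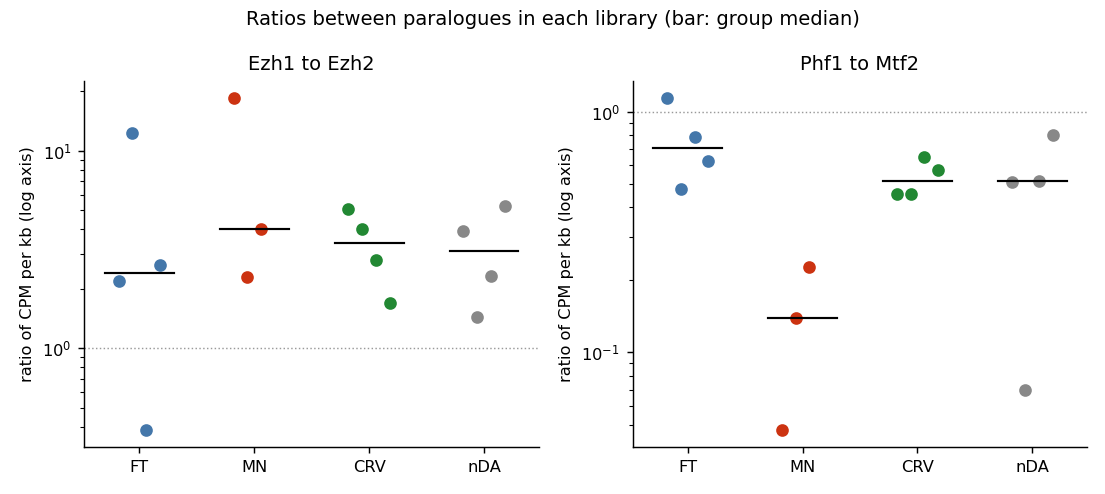
Ratios of CPM per kilobase between related subunits in each library, on log axes: Ezh1 to Ezh2 on the left and Phf1 to Mtf2 on the right, by group (FT, MN and CRV dopaminergic; nDA non-dopaminergic). Points are libraries, bars are group medians and the dotted line marks a ratio of 1. The Ezh1 to Ezh2 ratio falls under 1 in food-trained replicate 3 only, and the Phf1 to Mtf2 ratio is at 0.0475 to 0.226 in the maintenance libraries and at 0.0699 in non-dopaminergic replicate 2.

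The other core subunits were present in all libraries with no call. Eed (chr7:89954654-89980983, minus strand), which reads the mark, stood at 9.17, 34.0, 19.7 and 20.9 CPM after food training, at 17.5, 31.9 and 14.3 CPM at maintenance, at 39.1, 17.8, 19.6 and 26.4 CPM at abstinence and at 24.8, 25.4, 22.3 and 21.9 CPM in non-dopaminergic nuclei. The non-dopaminergic libraries were close together (SD 1.77 CPM) and lay inside the range of the food-trained dopaminergic ones. Suz12 (chr11:79993106-80034123, plus strand), the scaffold that holds the core together, stood at 14.6, 20.7, 38.7 and 35.3 CPM after food training, at 17.7, 31.6 and 23.6 CPM at maintenance, at 50.0, 35.0, 17.6 and 31.1 CPM at abstinence and at 27.4, 36.9, 47.1 and 37.3 CPM in non-dopaminergic nuclei. For both genes all 4 groups overlapped, and the edgeR adjusted p was 0.835 for Eed and 0.505 for Suz12 between populations. In the 3 stage contrasts Eed differed by 0.02 to 0.30 and Suz12 by -0.17 to 0.46 on the log2 scale, and no edgeR adjusted p of either was below 0.943.

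Rbbp4 and Rbbp7 are histone-binding subunits that also belong to other chromatin complexes. Rbbp4 (chr4:129307100-129335370, minus strand) stood at 67.2, 40.3, 49.4 and 57.0 CPM after food training, at 35.4, 52.2 and 40.6 CPM at maintenance, at 76.2, 52.8, 38.4 and 61.4 CPM at abstinence and at 41.4, 54.8, 50.6 and 50.4 CPM in non-dopaminergic nuclei. Its groups overlapped in every comparison, and its log2 fold change between populations was 0.09 (SE 0.22, edgeR adjusted p 0.856), with a 95% interval of -0.33 to 0.52. Rbbp7 (chrX:162760402-162779092, plus strand) stood at 46.3, 79.8, 50.0 and 62.8 CPM after food training, at 41.8, 36.6 and 47.1 CPM at maintenance, at 52.4, 50.8, 47.0 and 61.7 CPM at abstinence and at 61.2, 67.3, 39.7 and 51.5 CPM in non-dopaminergic nuclei. The maintenance libraries were the lowest group, but the highest of them was above the lowest food-trained and abstinence libraries. The maintenance contrast of Rbbp7 was -0.51 (SE 0.28, unadjusted p 0.0875, edgeR adjusted p 0.505). Per kilobase, Rbbp7 was above Rbbp4 in all 15 libraries.

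Jarid2 (chr13:44729474-44921643, plus strand) binds nucleosomes and helps bring PRC2 to its targets. It stood at 91.8, 50.4, 45.6 and 59.2 CPM after food training, at 55.7, 67.8 and 78.2 CPM at maintenance, at 53.8, 43.4, 34.6 and 43.6 CPM at abstinence and at 65.9, 66.6, 76.6 and 73.1 CPM in non-dopaminergic nuclei. All 4 abstinence libraries were below all 3 maintenance libraries, by a small gap. The food-trained libraries covered the maintenance range, and 3 of the 4 abstinence libraries lay below the lowest of them. The log2 fold change of abstinence against maintenance was -0.62 (SE 0.30, unadjusted p 0.0579), which did not pass (edgeR adjusted p 0.519). Against food training, abstinence differed by -0.49 (SE 0.28, edgeR adjusted p 0.99997). Jarid2 was the only 1 of the 9 members with a negative difference between abstinence and maintenance: the other 8 were higher, with a median over the 9 of 0.40 against 0.05 over all genes, of which 52.8% were higher.

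**Figure D3:**
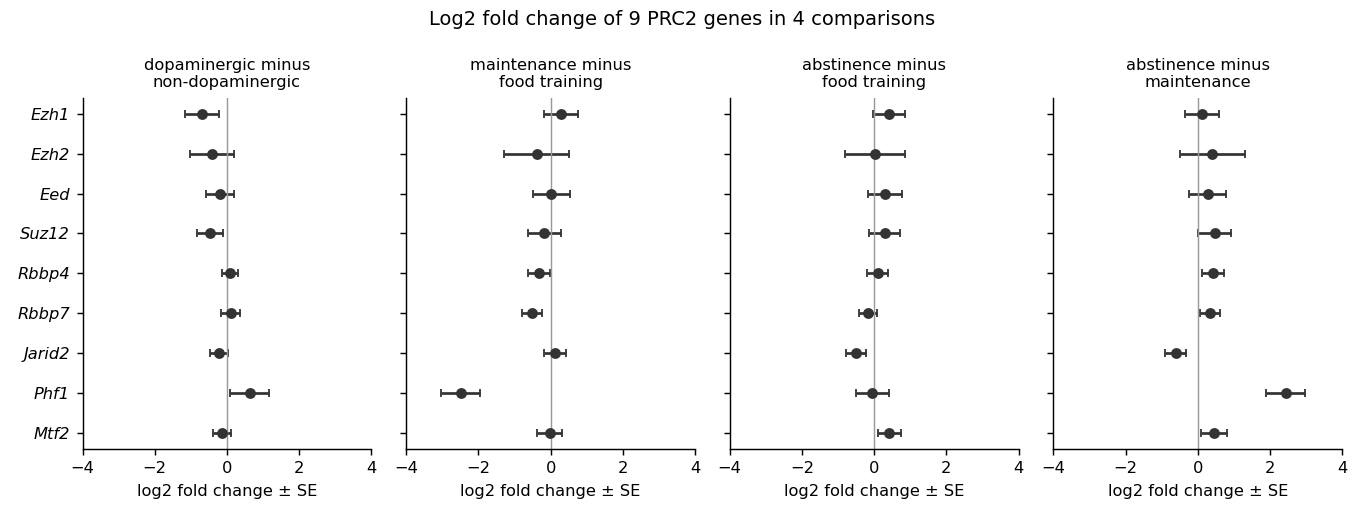
Log2 fold change of 9 PRC2 genes (points) with the standard error (bars) from edgeR's quasi-likelihood fits, in 4 comparisons with the direction written over each panel. Phf19 is left out, since it is at 0 in every dopaminergic library. Phf1 is the 1 gene far from 0, at -2.49 in the maintenance contrast and 2.43 between abstinence and maintenance, and neither value passed the adjusted threshold.

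Phf1, Mtf2 and Phf19 are the Polycomb-like subunits, which bind CpG-rich DNA and bring the core complex with them. Phf1 (chr17:26933052-26937908, plus strand) stood at 71.0, 44.4, 89.4 and 40.0 CPM after food training, at 3.08, 17.9 and 11.7 CPM at maintenance, at 65.9, 36.5, 58.4 and 73.8 CPM at abstinence and at 42.2, 7.499, 51.5 and 53.9 CPM in non-dopaminergic nuclei. The maintenance libraries, with 149, 595 and 481 counts, were all below every food-trained and abstinence library, and non-dopaminergic replicate 2 lay among them. The means were 61.2 ± 23.2 (SD, n = 4), 10.9 ± 7.47 (n = 3) and 58.7 ± 16.0 CPM (n = 4) at the 3 stages. Maintenance differed from food training by -2.49 (SE 0.54, unadjusted p 0.000445), which ranked 83 of 19060 genes and did not pass (edgeR adjusted p 0.0995). Abstinence was higher than maintenance by 2.43 (SE 0.54, unadjusted p 0.000533, edgeR adjusted p 0.120) and differed from food training by -0.06 (SE 0.46). The call for maintenance against food training changed with the test, since DESeq2 gave an adjusted p of 9.17e-05 and edgeR on genes with at least 10 counts in every library gave 0.0332, whereas without any 1 library edgeR's adjusted p ran from 0.0535 to 0.292.

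The 4 libraries with the lowest Phf1 were also the 4 with the lowest slope of gene level on GC content. The longest Phf1 transcript is 60.0% GC, at the 95th percentile of 15179 expressed genes and the highest of the 10 members. A slope of each library's log2 CPM on GC content, per percent GC over 8348 genes, was -0.0383, -0.0223 and -0.0385 in the maintenance libraries and -0.0248 in non-dopaminergic replicate 2. The other 11 libraries ran from -0.0174 to 0.0331. The next lowest slope, -0.0174 in food-trained replicate 2, was close to the -0.0223 of maintenance replicate 2, and Phf1 stood at 44.4 CPM in the former and 17.9 CPM in the latter. With the genes split into 10 equal bins by GC content, the median log2 fold change of maintenance against food training was -0.57 in the bin of highest GC content (1658 genes from 58.3% GC) and 0.16 in that of lowest. For abstinence against food training the same bins had medians of 0.08 and 0.03. Phf1, at -2.49, lay below the median of its own bin.

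The settings that took this into account gave different values. With a GC curve fitted to each library as an offset, the maintenance difference of Phf1 was -1.99 (SE 0.52, edgeR adjusted p 0.256). In a fit of all 15 libraries with a term for the 4 libraries of low slope, the difference was 0.22 (SE 0.85, edgeR adjusted p 0.9999). In that fit the term is told from the stage only by non-dopaminergic replicate 2, a single library. All 3 maintenance libraries had low slopes, so among dopaminergic nuclei the stage and the GC composition of the libraries cannot be told apart. The summed oligodendrocyte markers were also lower at maintenance, 1165 to 1751 against 1789 to 2839 CPM after food training, with 1 of the 9 past the threshold, and their part in the Phf1 difference was not tested. Phf1 shares 1370 exonic bases with Cuta on the opposite strand, and use of strand in the counting was not given in the sources used here. Cuta stood at 22.7, 45.2 and 47.2 CPM at maintenance and at 28.5, 21.2, 28.6 and 28.2 CPM after food training. Maintenance replicate 1, the lowest library for Phf1, was thus also low for Cuta, and the other 2 maintenance libraries were above all food-trained ones. Food-trained replicate 2 was lower still for Cuta (21.2 CPM), with Phf1 at 44.4 CPM. Non-dopaminergic replicate 2, with Phf1 at 7.499 CPM, had the highest Cuta of its group (30.5 CPM). The part of Cuta reads in the Phf1 counts was not tested.

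**Figure D4:**
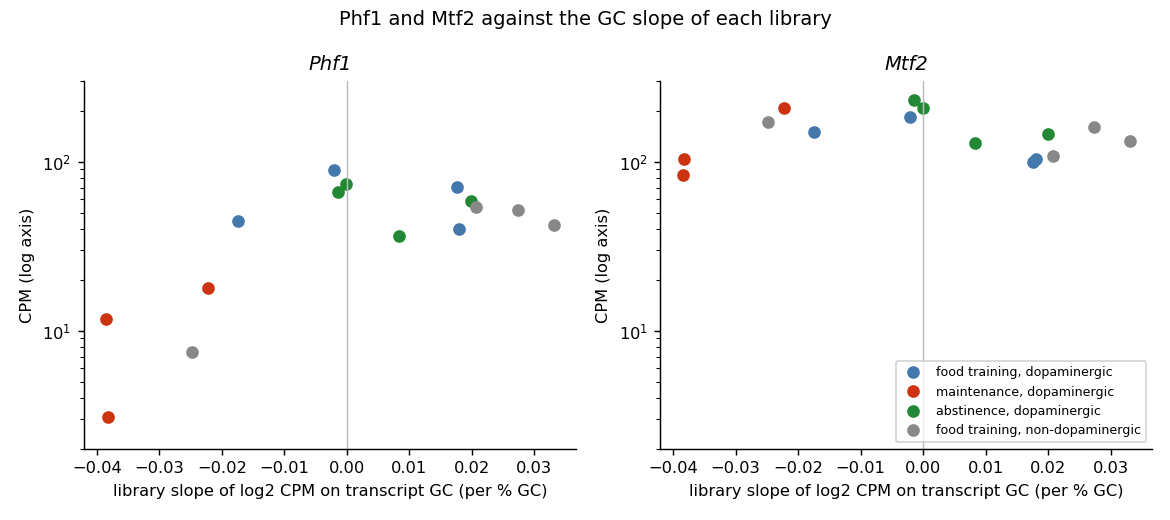
CPM (log axis) of Phf1, left, and Mtf2, right, against each library's GC slope (log2 CPM per percent GC), shown for each of the 15 libraries, coloured by group. The 4 libraries with slopes of -0.0385 to -0.0223 have the 4 lowest Phf1 levels, 3.08 to 17.9 CPM, while Mtf2 is between 83.3 and 208 CPM in them.

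**Figure D5:**
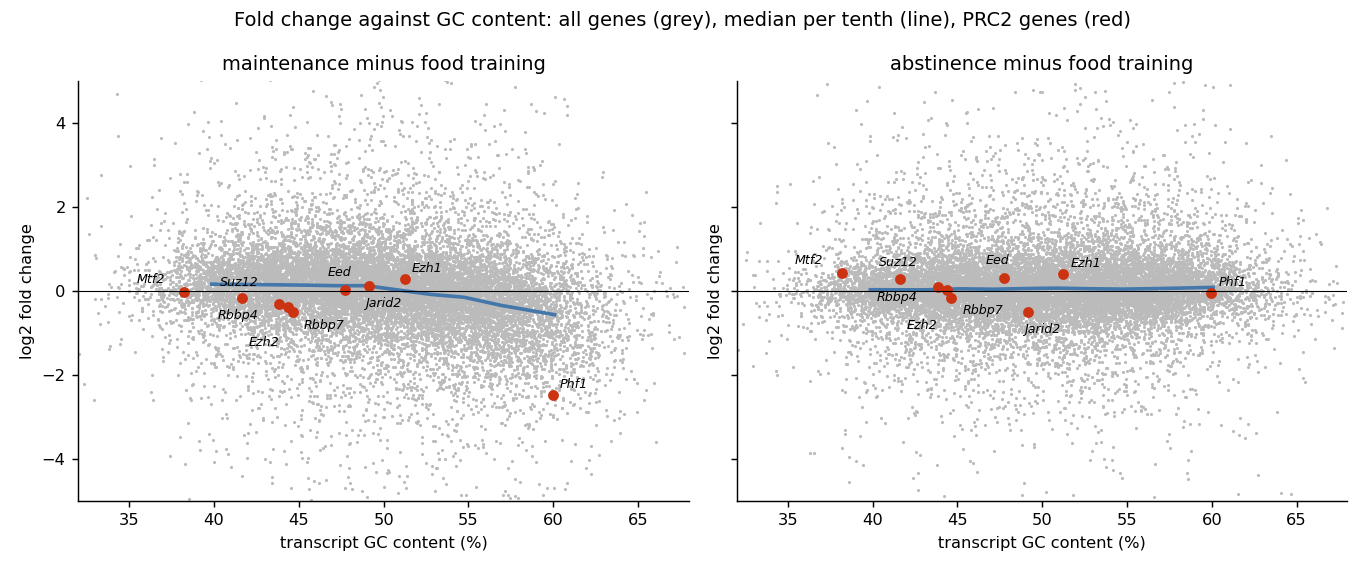
Log2 fold change in dopaminergic nuclei against the GC content of the longest transcript, for maintenance minus food training (left) and abstinence minus food training (right). Grey points are all genes with a GC value, the line joins the medians of 10 equal bins of genes by GC content, and red points are the PRC2 genes in the fit; genes outside the drawn axes are not shown. The line runs down to -0.57 in the highest bin on the left and stays near 0 on the right.

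Mtf2 (chr5:108065674-108109004, plus strand) has the opposite base composition, with 38.2% GC, at the 2.0th percentile. It stood at 99.9, 150, 183 and 103 CPM after food training, at 104, 208 and 83.3 CPM at maintenance, at 232, 130, 145 and 208 CPM at abstinence and at 132, 172, 161 and 109 CPM in non-dopaminergic nuclei. Maintenance replicate 2 was among the highest libraries and maintenance replicate 3 was the lowest, and all groups overlapped. The maintenance contrast was -0.03 (SE 0.35, edgeR adjusted p 1.0) and that of abstinence against food training 0.42 (SE 0.32, edgeR adjusted p 0.99997). Between populations Mtf2 differed by -0.12 (SE 0.25, edgeR adjusted p 0.833). Mtf2 shares 395 exonic bases with Tmed5 on the opposite strand, and the part of Tmed5 reads in its counts was not tested.

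Mtf2 was the most abundant member per kilobase in 12 of 15 libraries. Its means were 33.03 CPM per kb after food training, 32.5 at maintenance and 44.0 at abstinence, against 35.4 in non-dopaminergic nuclei. Rbbp7 came next in each group (26.6, 18.6, 23.6 and 24.5 CPM per kb), followed by Phf1 in 3 of them (24.2 after food training, 23.2 at abstinence and 15.4 in non-dopaminergic nuclei). At maintenance Phf1 stood at rank 8 of 10 with 4.32 CPM per kb. Eed was above Suz12 per kilobase in all 15 libraries, and Ezh2 was the next to last member in 12 of 15. Of the 36 pairs of neighbours in these orders, 8 had ranges that did not overlap, 4 of them Ezh2 above Phf19. The others were Mtf2 above Rbbp7 at abstinence, Phf1 above Rbbp4 after food training, and Rbbp7 above Jarid2 and Rbbp4 above Suz12 at maintenance. The ranges of the remaining neighbours overlapped, and no test was run between members.

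Phf1 made up a varying share of the Polycomb-like transcripts. As a percent of the summed CPM per kb of Phf1, Mtf2 and Phf19 it was 32.2 to 53.3% after food training, 4.53 to 18.4% at maintenance, 31.2 to 39.3% at abstinence and 6.52 to 44.3% in non-dopaminergic nuclei, with the lowest non-dopaminergic value again in replicate 2. The share at maintenance did not overlap with that of the other dopaminergic groups, and it rests on the same libraries as the Phf1 level.

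Phf19 (chr2:34893757-34914026, minus strand) was the rarest member. It had 78, 12, 120 and 14 counts in non-dopaminergic replicates 1 to 4, which is 1.58, 0.249, 2.72 and 0.301 CPM, and 0 counts in all 11 dopaminergic libraries. Non-dopaminergic replicates 1 and 3 held most of the counts, and the lowest of the 4 was still above the limit that a count of 0 allows in a dopaminergic library, 3 counts or 0.0523 to 0.110 CPM. Taking that floor of 3 counts in each food-trained dopaminergic library (mean 0.0786 CPM), Phf19 was at least 15.4-fold higher in non-dopaminergic nuclei, with a mean of 1.21 CPM (n = 4). Without non-dopaminergic replicate 3 the bound was 9.03-fold, and replicates 2 and 4 alone were at least 3.16-fold and 3.83-fold above the floor. The floor covers counting error only, since the counts carry no molecular identifiers. The edgeR adjusted p was 0.0175, for a gene that entered the fit only through the group in which it had counts, and the filter of 10 counts in every sample removed it. The call was lost in 3 of 17 settings: with the replicate block, with the block and the GC offset together (edgeR adjusted p 0.186) and in the fit of all 15 libraries with the term for low slopes (0.0831). The summed glial markers were higher in the same 4 libraries. Among these, replicate 3, with the most Phf19 counts, had the lowest sums of oligodendrocyte (9093 CPM) and astrocyte markers (1219 CPM). Replicate 2, with the fewest, had the highest (22770 and 2823 CPM). Replicate 1, with 78 counts, had a higher oligodendrocyte sum (15180 CPM) than replicate 4 (14570 CPM), with 14. The part of glial nuclei in the Phf19 counts was not tested. Phf19 was filtered out of the stage fit for low counts, so 9 of the 10 members were tested there.

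The promoters of Phf19, Ezh2 and Suz12 are shown because they alone among the members held a word of the cell-cycle factor family E2F. This family is known to drive PRC2 genes in dividing cells. Per kilobase these genes were the lowest in food-trained dopaminergic and in non-dopaminergic nuclei, where Suz12 overlapped the member above it. Suz12 stood at rank 7 of 10 at maintenance, above Phf1, and at abstinence, above Jarid2. Any link between the words and the levels was not tested. The promoter of Phf1 is shown as that of the member with the largest shift between stages. Sequences are from RefSeq (GRCm38.p6), cover 250 bases before to 50 after the start, and run from 5′ to 3′ on the gene's strand. The table held 12 promoters for the 10 members. The words searched on both strands were TTTCCCGC, TTTGGCGC, TTTCGCGC and TTTGCCGC, which are in 744 of 32851 promoters (2.27%), and capitals mark a match. A match is a description of the letters, not of binding.
Phf19 (chr2:34913927-34914226, minus strand): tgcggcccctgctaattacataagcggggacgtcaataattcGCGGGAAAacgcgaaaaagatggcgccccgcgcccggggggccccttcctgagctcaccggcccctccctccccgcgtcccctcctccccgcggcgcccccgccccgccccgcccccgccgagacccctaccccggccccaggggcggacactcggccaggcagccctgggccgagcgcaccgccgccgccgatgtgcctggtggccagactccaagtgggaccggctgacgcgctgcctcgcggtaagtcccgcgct
Ezh2 (chr6:47594981-47595280, minus strand): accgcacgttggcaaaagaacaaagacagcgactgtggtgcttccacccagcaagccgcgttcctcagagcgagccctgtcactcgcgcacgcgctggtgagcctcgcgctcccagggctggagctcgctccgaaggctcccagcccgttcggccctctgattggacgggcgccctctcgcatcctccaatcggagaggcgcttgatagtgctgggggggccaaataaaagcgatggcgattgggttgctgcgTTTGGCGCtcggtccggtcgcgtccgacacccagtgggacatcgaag
Suz12 (chr11:79992856-79993155, plus strand): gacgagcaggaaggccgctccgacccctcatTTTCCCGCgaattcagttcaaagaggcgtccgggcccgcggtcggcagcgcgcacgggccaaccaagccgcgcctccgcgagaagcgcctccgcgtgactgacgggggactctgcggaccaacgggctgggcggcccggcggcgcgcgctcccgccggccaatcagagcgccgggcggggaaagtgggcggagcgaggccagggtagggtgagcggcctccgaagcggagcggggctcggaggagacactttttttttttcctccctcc
Phf1 (chr17:26932877-26933176, plus strand): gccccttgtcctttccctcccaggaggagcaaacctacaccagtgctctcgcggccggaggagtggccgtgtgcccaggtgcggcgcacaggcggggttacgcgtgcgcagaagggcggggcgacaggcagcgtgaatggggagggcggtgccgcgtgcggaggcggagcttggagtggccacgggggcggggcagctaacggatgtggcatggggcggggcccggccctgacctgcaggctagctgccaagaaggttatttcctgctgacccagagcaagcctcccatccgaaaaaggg
The match lies 208 bases before the start in Phf19 and 219 before it in Suz12, and begins at base 4 after the start in Ezh2. The promoter of Phf1 is 68.7% GC with 24 CpG sites, and that of Phf19 is 74.3% GC with 38, against medians over all promoters of 52.7% and 7.

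The genes whose levels over the 15 libraries were most like those of Phf1, among 11000 genes, were Irf2bpl (Pearson r 0.976), Kifc2 (0.951) and Fcho1 (0.929). Their transcripts are 60.0%, 59.5% and 60.1% GC. Irf2bpl stood at 3.88, 26.8 and 17.1 CPM at maintenance and 11.9 CPM in non-dopaminergic replicate 2, against 58.1 to 103 CPM in the other 11 libraries, so it was low in the same 4 libraries as Phf1. For Ezh1 the nearest genes were 9430015G10Rik (0.965), Snx15 (0.939) and Mark4 (0.934), and for Ezh2 they were Ctnnd2 (0.930), Shc1 (0.914) and Asb3 (0.898). Ezh1 and Ezh2 had an r of 0.06 with each other, and Phf1 had an r of 0.30 with Mtf2. These values are descriptions over libraries that share groups, depth and base composition.

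The further PRC2 subunits and inhibitors gave no call: of Aebp2, Epop, Lcor, Lcorl and Ezhip, 0 of 4 tested passed between populations and 0 of 5 in each stage contrast (edgeR, adjusted), with 1 at an unadjusted p under 0.05 between abstinence and maintenance, 0 in the other comparisons and 0 by DESeq2. The 1 was Ezhip (listed as AU022751), with 0 counts at maintenance and 410 at abstinence (2.04 ± 2.36 CPM, SD). It was kept by the filter only through groups in which it had counts. Over all genes 9.92% had an unadjusted p under 0.05 in that contrast, and nothing is read from this count. Aebp2, which joins a form of PRC2 together with Jarid2, stood at 32.1 ± 8.31 CPM after food training and 42.3 ± 8.52 CPM in non-dopaminergic nuclei (SD, n = 4 each). The demethylases that remove the mark, Kdm6a and Kdm6b, and their relative Uty were expressed in every library, with summed levels of 94.7 to 186 CPM. Of the 3, 0 passed in any comparison by edgeR or DESeq2, and 0 had an unadjusted p under 0.05. Kdm6a stood at 34.5 ± 2.07 CPM after food training, 31.5 ± 8.66 at maintenance (n = 3), 45.1 ± 14.5 at abstinence and 43.3 ± 5.48 CPM in non-dopaminergic nuclei (n = 4 where not given).

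Of 23 PRC1 genes, 0 passed in any of the 4 comparisons, with 2 at an unadjusted p under 0.05 between populations, 3 at maintenance, 0 at abstinence against food training and 3 between abstinence and maintenance (edgeR). Over all genes the same rule took 24.3%, 11.6%, 4.3% and 9.92%, so the list's counts lay below or near the background. DESeq2 called 1, 2, 0 and 2 of them in the same order. At maintenance 17 of the 23 were lower than after food training, with a median log2 fold change of -0.45 against -0.01 over all genes, of which 49.2% were higher. Cbx6, a reader of the mark, stood at 39.4, 61.8 and 32.3 CPM at maintenance and at 146, 86.5, 157 and 122 CPM after food training, a difference of -1.52 (SE 0.33, edgeR adjusted p 0.0995). Ring1, a ubiquitin ligase of PRC1, stood at 22.9, 41.3 and 11.7 CPM at maintenance and at 65.8, 51.0, 38.9 and 60.9 CPM after food training (-1.10, SE 0.47, edgeR adjusted p 0.401). Non-dopaminergic replicate 2 was again below the rest of its group, at 44.1 CPM for Cbx6 against 113 to 150 CPM and at 20.6 CPM for Ring1 against 73.2 to 98.5 CPM. The transcripts of Cbx6 and Ring1 are 56.7% and 60.7% GC.

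In the complex that removes ubiquitin from histone H2A, 0 of 4 genes passed in any comparison, and 2 had an unadjusted p under 0.05 in each of the contrasts with maintenance (edgeR), in each of which DESeq2 called 1. Over all genes the unadjusted shares were 11.6% and 9.92%, and with 4 genes in the list nothing is read from these counts. Bap1, the enzyme, with 54.9% GC, stood at 27.9, 24.4 and 18.3 CPM at maintenance against 39.2 to 82.4 CPM after food training (-1.24, SE 0.35, edgeR adjusted p 0.221). Asxl2, its partner, with 41.8% GC, had the opposite sign, at 139, 166 and 190 CPM against 94.1 to 120 CPM (0.59, SE 0.22, edgeR adjusted p 0.376). In non-dopaminergic replicate 2 the same genes stood at 18.5 and 176 CPM, against 49.6 to 66.0 and 108 to 122 CPM in the other 3 libraries of that group.

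Of 18 genes of other chromatin complexes that hold Rbbp4 and Rbbp7, 17 were tested and 2 rose in dopaminergic nuclei, against 0 in each stage contrast (edgeR, adjusted). The 2 of 17 are a share near the 12.8% of all genes in that comparison. At an unadjusted p under 0.05 there were 3 between populations, among them Mta2, which was lower in dopaminergic nuclei (27.8 against 80.2 CPM, -1.55, SE 0.62, edgeR adjusted p 0.162). There were 3 at maintenance and 1 in each of the other stage contrasts, and DESeq2 called the same count of 2 between populations and 1, Sin3b, in each contrast with maintenance. Over all genes the unadjusted rule took 24.3% between populations and 11.6% at maintenance. It took 4.3% for abstinence against food training and 9.92% for abstinence against maintenance, and nothing is read from the list's counts. Chd4, the remodelling ATPase of the NuRD complex, stood at 396, 496, 370 and 484 CPM in food-trained dopaminergic and at 250, 221, 311 and 291 CPM in non-dopaminergic nuclei, a difference of 0.68 (SE 0.19, edgeR adjusted p 0.0493). Its groups did not overlap, but the call was kept in 1 of 8 fits with a library removed (edgeR adjusted p 0.0236 to 0.132). Sap18, a subunit of the Sin3 complex, stood at 60.6, 120, 82.9 and 89.8 CPM against 39.0, 58.8, 39.8 and 36.8 CPM, a difference of 1.00 (SE 0.26, edgeR adjusted p 0.0344), and kept its call in 3 of 8 such fits (0.0166 to 0.101). With the replicate block the edgeR adjusted p was 0.116 for Chd4 and 0.0576 for Sap18.

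Classical silenced targets of PRC2, the 39 Hox genes with Cdkn2a and Cdkn2b, were close to 0 everywhere. Between 0 and 7 of the 41 had any count in a dopaminergic library, with summed levels of 0 to 15.3 CPM, against 10 to 15 genes and 5.92 to 14.5 CPM in non-dopaminergic libraries. Over all 35976 genes, 14841 to 19750 had a count in a dopaminergic library and 22733 to 23886 in a non-dopaminergic one. The gap is thus not particular to these targets. In the population fit 8 of the 41 had enough counts to be tested. In the stage fit 2 of the 41 were tested and 0 passed, with 0 at an unadjusted p under 0.05 and 0 by DESeq2.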

How the data were processed

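RNA of sorted nuclei from 15 samples was sequenced after low-input cDNA preparation, per the labels' protocols, and the authors deposited raw counts per gene for 35976 genes. The submitters' processing notes name the build mm10/GRCm38, Trim Galore 0.6.7, cutadapt 1.18, STAR 2.7.10a, StringTie 2.1.5 and DESeq2 1.38.3. The annotation and the use of strand are not given in the sources used here, so overlapping genes on opposite strands cannot be told apart. A deposited table named as normalized held the same raw counts for 10 dopaminergic libraries, without food-trained replicate 3, and was used for that comparison only. The members and gene lists were chosen with earlier results of these data known. Of the silenced target genes, the result of a single-gene test is not reported here. The named genes are the members, the list genes past or nearest the threshold, and the 3 genes most like each of Phf1, Ezh1 and Ezh2.

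Counts were tested over all genes kept by filterByExpr with edgeR 4.0.16 in R 4.3.3 (TMM factors, quasi-likelihood F-test, Benjamini-Hochberg adjustment, threshold 0.05). The 8 food-trained libraries entered the population fit and the 11 dopaminergic libraries the stage fit. Fold changes are edgeR's, with its default prior count, and each SE is the size of the log2 fold change divided by the square root of its F statistic. CPM were scaled with TMM factors of all 15 libraries, and CPM per kb were divided by the longest protein-coding transcript in GENCODE M21. The lower bounds take 3 counts per library as the floor. The alternatives were other scaling factors, other filters, DESeq2 1.42.0, the replicate number as a block, an offset for GC content (spline with 3 degrees of freedom), both together, all 15 libraries with and without a term for the 4 libraries of low GC slope, and leaving out each library. GC content was matched for 86.8 to 87.1% of tested genes. The fits were also run on simulated counts. These held no GC slope and no pairing between libraries, so the runs do not cover those features.

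Food-trained dopaminergic and non-dopaminergic samples share replicate numbers. Deviations of same-numbered libraries correlated at 0.116, 0.127, 0.262 and 0.242, and those of different numbers at -0.184 to 0.146 (mean -0.058). Among non-dopaminergic libraries, each food-trained dopaminergic library had its highest r with the same number. Maintenance replicate 2 and non-dopaminergic replicate 3, from different mice, correlated at 0.42. The numbers may mark shared pools, but these values do not settle it and the labels do not say. The reported population fit has no block, and values with the block are given beside the calls of members and lists. Same-numbered libraries of different stages correlated at -0.351 to 0.109 and were not taken as paired.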

Additional observations from a re-analysis of the deposited data

Results flagged for a closer look

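In 28 groups of 4 libraries, 1 for each member and group with counts, no library stood apart from the other 3 by Dixon's test, although chance alone would mark about 1 in 20 groups.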

How the results depend on the processing

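Of 647 alternative values of member fold changes, 595 kept their direction and side of the threshold, 45 changed sign, 4 passed where the reported fit did not and 3 no longer passed; the cause was not tested. All 80 alternative values of member levels stayed within 1 SD.

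The count of genes past the threshold moved as follows. The upper quartile gave 22 for abstinence against maintenance. At least 10 counts in every sample gave 1643 (populations), 109 (maintenance), 69 (abstinence against maintenance) and 41 (any stage). DESeq2 gave 3883, 992, 792 and 340, and 145 for abstinence against food training. The replicate block gave 775, 0, 2 and 0, the GC offset 16, 15 and 6 in the stage tests, block and offset together 987, 0, 3 and 0, and the low-slope term 965, 0, 1 and 0. All 15 libraries gave 15 for abstinence against maintenance and 9 for any stage. Leaving out a library gave 5 to 78 at maintenance, 6 to 73 for abstinence against maintenance and 1 to 23 for any stage.

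Changes of sign, on the log2 scale, were mostly near 0. Eed at maintenance was -0.00089 with DESeq2's factors, -0.0047 with no filter, -0.00082 by DESeq2, -0.11 with the GC offset, -0.15 with block and offset and -0.12 with the term. Ezh2 at abstinence against food training was -0.016 with DESeq2's factors, -0.0014 with the strict filter, -0.016 by DESeq2, -0.093 with the block, -0.087 with the offset and -0.21 with both. Mtf2 was 0.0017 at maintenance with the upper quartile and 8.785e-05 between populations with the term. Rbbp4 at abstinence against food training was -0.0037 with the offset and -0.018 with block and offset. Ezh1 between abstinence and maintenance was -0.083 with block and offset and -0.47 with the term. Phf1 with the term was 0.22 at maintenance and -0.29 between abstinence and maintenance.

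Leaving out a library gave ranges that cross 0. Between populations these were -0.53 to 0.051 (Eed), -0.035 to 0.21 (Rbbp4) and -0.072 to 0.20 (Rbbp7). At maintenance they were -0.41 to 0.33 (Eed), -0.53 to 0.22 (Mtf2), -0.033 to 0.54 (Ezh1), -0.42 to 0.041 (Suz12), -1.03 to 0.15 (Ezh2) and -0.0014 to 0.38 (Jarid2). At abstinence against food training they were -0.22 to 0.18 (Phf1), -0.30 to 0.27 (Ezh2) and -0.074 to 0.25 (Rbbp4). Between abstinence and maintenance they were -0.14 to 0.34 (Ezh1) and -0.13 to 1.05 (Ezh2).

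Between stages, where the numbers do not pair the samples, the replicate block left Phf1 at -2.56 at maintenance (edgeR adjusted p 0.353) and 2.54 between abstinence and maintenance (0.423). Chd4 also lost its call with no filter (0.0703) and with all 15 libraries (0.0529).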

Other observations

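Over the 9 members present in every group, the median coefficient of variation was lowest between non-dopaminergic libraries, at 20.4% (7.33 to 55.3%), although Phf1, Rbbp7 and Ezh1 each varied less in at least 1 dopaminergic group. In dopaminergic nuclei the medians were 38.0% (21.4 to 52.4%) after food training, 34.9% (12.5 to 81.3%) at maintenance and 27.6% (11.8 to 41.6%) at abstinence. These differences in spread were not tested.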
